A study of Drosophila melanogaster with 24 samples.

Results

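The 8 genes described here make, package and take back the monoamine transmitters of the fly head. The genes ple, Ddc, Trh, Tdc2 and Tbh encode enzymes of synthesis, and Vmat, DAT and SerT encode transporters. They were taken by name from the deposited table of gene counts and are 8 of its 16722 genes. No measured value entered the rule, but earlier results of these data were known when they were chosen. All 8 had counts in each of the 24 libraries and passed the filter on low counts, which left 11095 genes for testing. Poly(A) RNA of heads came from flies of the cwo5073 mutant strain and from wild-type flies of the strain w1118, which the labels give as the control of the mutant. The product of cwo (clockwork orange) is a repressor of transcription in the circadian clock. Flies of both genotypes were held at 25 °C under 12 h of light and 12 h of dark for 3 days, and heads were taken on day 4 at ZT2, ZT6, ZT10, ZT14, ZT18 and ZT22 (zeitgeber time, hours after lights on). The collection text names fewer times than the sample titles and the design, and the titles were followed. Each of the 12 groups of genotype and time had 2 libraries, numbered replicates 1 and 2, and neither sex nor age of the flies is stated by the labels.

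Monoamines are made from amino acids in a few steps. Tyrosine hydroxylase turns tyrosine into L-DOPA, the step that limits the rate of dopamine synthesis, and an aromatic amino acid decarboxylase turns L-DOPA into dopamine. The same decarboxylase completes the synthesis of serotonin, which starts with the hydroxylation of tryptophan. Octopamine is made from tyrosine by way of tyramine, through a decarboxylase and a hydroxylase of its own. A vesicular transporter loads all of these amines into synaptic vesicles, and transporters of the plasma membrane take dopamine and serotonin back up after release. In insects the amines also have uses outside the nervous system, since dopamine made in the epidermis is a building block of hardened and pigmented cuticle. RNA of whole heads holds neurons, glia, epidermis, eye, muscle and fat body together, and in such bulk samples fewer cells of a type and less RNA per cell cannot be told apart.

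Library totals were 11322400 to 19642411 counts. The targeted gene cwo was itself higher in the mutant, at 523 ± 247 CPM (counts scaled to library size), against 93.5 ± 39.6 CPM in wild type (SD, n = 12 each; log2 fold change 2.44, edgeR adjusted p = 8.8e-12). For this gene all 12 mutant libraries lay above all 12 wild-type libraries. The strains also differed in the pigment transporter gene w, with 277 ± 144 CPM in the mutant and 10.1 ± 4.06 CPM in wild type, and the effect of cwo5073 and other differences between the strains cannot be told apart. Among the wild-type libraries, 2 stood apart from the rest. Wild-type ZT2 replicate 2 had a median Spearman correlation with the other libraries of 0.893, and wild-type ZT22 replicate 1 had 0.953, against 0.971 to 0.982 for the remaining 22. In both, long abundant transcripts were low relative to short ones, with a difference in median log2 deviation of -1.49 and -1.13, while the mutant libraries lay between -0.33 and 0.60. None of the 51 markers of neurons, glia, epidermis, hemocytes, muscle, photoreceptors and fat body was at 0 in all libraries, and the photoreceptor genes that mark a head were the most abundant list, with a summed level of 76172 to 93936 CPM in the mutant and 55747 to 75655 CPM in wild type.

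Scaled for transcript length, the decarboxylase gene Ddc was the most abundant of the 8, and DAT and Tdc2 were the least abundant. Summed over a gene's transcripts, the level in FPKM (fragments scaled for transcript length and library depth) was 124 ± 15.3 for Ddc in the mutant and 153 ± 33.9 in wild type (SD, n = 12 each). Vmat followed, with 62.8 ± 5.96 FPKM in the mutant and 63.6 ± 12.2 FPKM in wild type. The tyrosine hydroxylase gene ple came next, with 26.4 ± 4.73 FPKM in the mutant and 21.8 ± 8.51 FPKM in wild type. Ddc and Vmat were apart from their neighbours in this order by more than the SD of either genotype. Trh had a mean of 12.3 FPKM in the mutant and 13.1 FPKM in wild type, Tbh 12.6 and 10.9 FPKM, and SerT 9.78 and 10.6 FPKM. Trh and Tbh changed places in the order between the genotypes, and these 3 genes lay within their spread of each other. DAT, at 6.50 FPKM in the mutant and 7.52 FPKM in wild type, and Tdc2, at 6.35 FPKM in the mutant and 6.32 FPKM in wild type, were the lowest and also lay within their spread.

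The genotypes differed little over the 8 genes as a whole. With all 6 times averaged, edgeR's quasi-likelihood test called 1 of the 8 genes, Ddc, which fell in the mutant, and called none higher. Of all genes tested 28.0% were called, 14.1% higher and 13.9% lower in the mutant, so 1 of 8 is no more than the background share. The median log2 fold change of the 8 genes was -0.05, and that of all genes tested was -0.01. An unadjusted p under 0.05 was found for 3 of the 8 (Ddc, Tbh and DAT), and for 4754 of all 11095 genes tested, so this count too does not exceed the background. In no gene of the 8 were the 12 mutant libraries apart from the 12 wild-type libraries, a separation that 1.68% of all genes showed. The values of each library, drawn by time, show overlapping lines for all 8 genes.

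**Figure D1:**
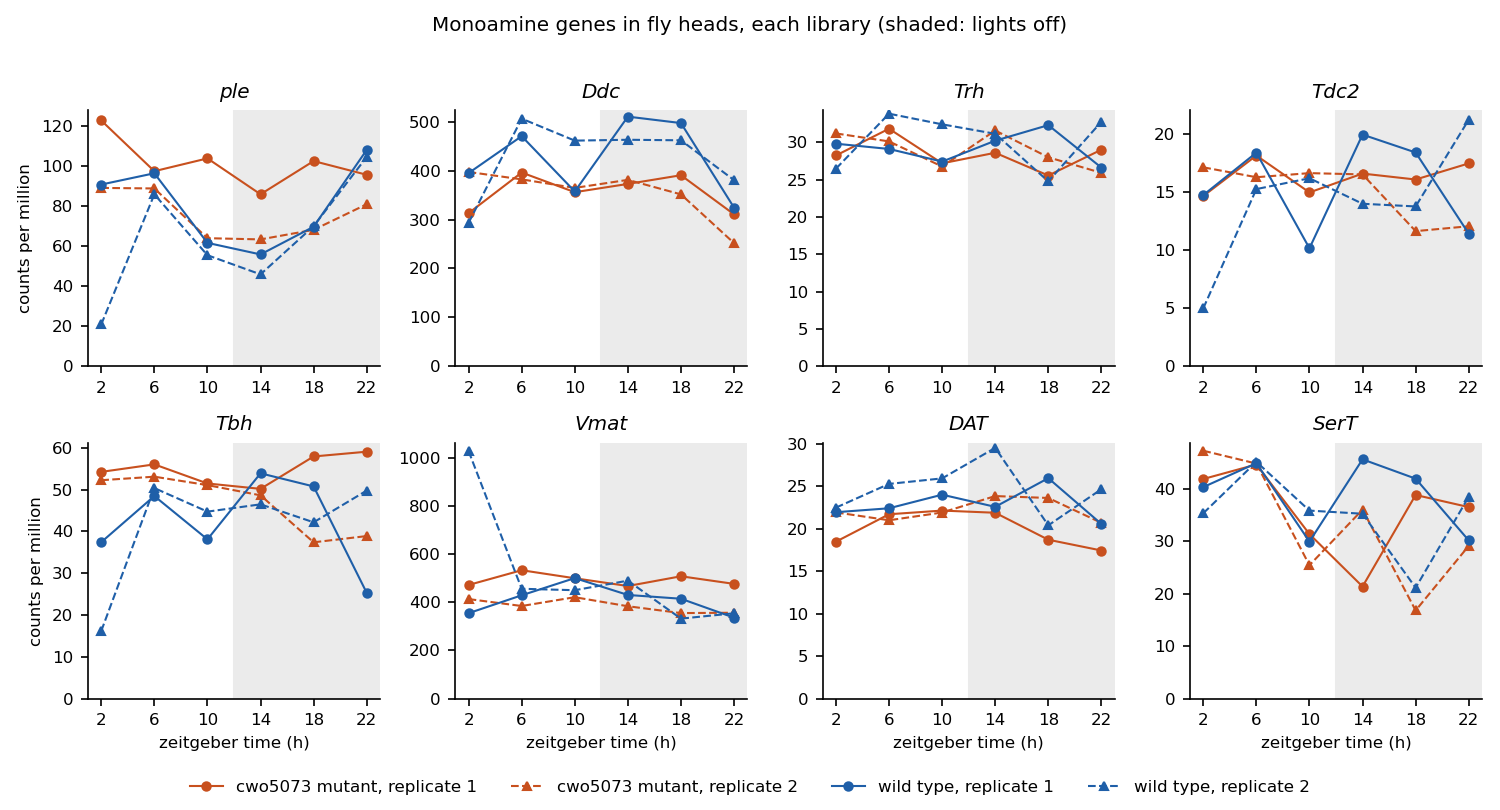
CPM (y axis, from 0) of the 8 monoamine genes in each library against zeitgeber time (x axis, h), with mutant libraries in orange, wild-type libraries in blue and replicates 1 and 2 as circles and triangles. Mutant and wild-type lines overlap in all 8 panels, and wild-type ZT2 replicate 2 is the lowest library for ple (20.8 CPM), Tdc2 (4.97 CPM) and Tbh (16.2 CPM) and the highest for Vmat (1027 CPM).

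The gene ple (FBgn0005626; chromosome 3L, 6713356 to 6719525, minus strand, dm6) encodes tyrosine hydroxylase. Its level was 63.2 to 123 CPM in the mutant (median 88.8) and 20.8 to 108 CPM in wild type (median 69.7). One mutant library lay above the highest wild-type library, and the lowest wild-type value was that of ZT2 replicate 2, where 184 counts were recorded. Over all times the log2 fold change was 0.34 ± 0.18 (SE), which did not pass the test (adjusted p = 0.156). Leaving out wild-type ZT2 replicate 1 made ple a call (0.58, adjusted p = 0.000664), with ZT2 replicate 2 then the only wild-type library at that time, while leaving out replicate 2 gave 0.22 (adjusted p = 0.112).

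For ple the times of the highest and lowest levels were compared between the replicate series. In the mutant both replicate series were highest at ZT2, with 123 and 88.9 CPM, and lowest at ZT14, with 85.7 and 63.2 CPM. In wild type both were highest at ZT22, with 108 and 104 CPM. Wild-type replicate 1 was lowest at ZT14 (55.7 CPM) and replicate 2 at ZT2 (20.8 CPM) and, among its other times, at ZT14 (45.8 CPM). ZT14 was thus the lowest time in 3 of the 4 series. The wild-type replicates were 0.295 to 10.5 CPM apart at each time from ZT6 to ZT22, and 69.8 CPM apart at ZT2.

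A cosine of 24 h was fitted to test for such a course. In the mutant, ple had an amplitude of 0.21 ± 0.11 on the log2 scale (SE), a peak at ZT2.23 and a ratio of peak to trough of 1.34, and it was not called. In wild type, with all libraries, the amplitude was 0.19 ± 0.29 (adjusted p = 0.391). Without wild-type ZT2 replicate 2 the amplitude was 0.55 ± 0.07, the peak was at ZT1.03 ± 0.44 h and the ratio of peak to trough was 2.16 (edgeR adjusted p = 0.0046). Without that library and wild-type ZT22 replicate 1, ple was still called in wild type (amplitude 0.53 ± 0.08, adjusted p = 0.0171). The difference in rhythm between mutant and wild type was not called, with all libraries (adjusted p = 0.898) or without both of these (adjusted p = 0.960). A larger amplitude in wild type was therefore not established.

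Across all genes the rhythm test called 1.09% in the mutant, 5.62% in wild type and 0% for the difference between them. With all libraries none of the 8 genes was called in either genotype. The counts over all genes at an unadjusted p under 0.05 were 756 in the mutant, 3182 in wild type and 550 for the difference. In the mutant the serotonin transporter gene SerT had the widest fitted course of the 8, with an amplitude of 0.43 ± 0.15, a peak at ZT3.58 and a ratio of peak to trough of 1.82, at an unadjusted p of 0.0267 and an adjusted p of 0.536. In wild type the amplitude of SerT was 0.18 ± 0.13 (adjusted p = 0.666). The amplitude of Trh was 0.06 in the mutant and 0.05 in wild type, and that of DAT was 0.11 in both.

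**Figure D2:**
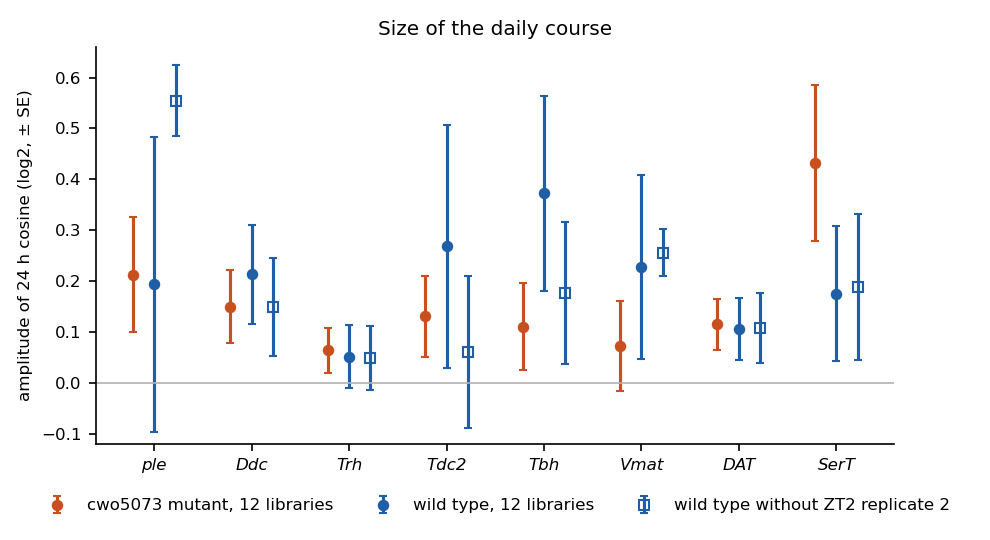
Amplitude (y axis, log2 units, points with bars of 1 SE) of a 24 h cosine fitted to each of the 8 genes (x axis) in 12 mutant libraries (orange), 12 wild-type libraries (filled blue) and the wild-type libraries without ZT2 replicate 2 (open blue). For ple in wild type the amplitude is 0.19 ± 0.29 with all libraries and 0.55 ± 0.07 without that 1 library.

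The gene Ddc (FBgn0000422; 2L, 19116483 to 19120306, minus strand) encodes the aromatic amino acid decarboxylase that makes both dopamine and serotonin, and it was the 1 gene of the 8 with a called difference. Its level was 252 to 398 CPM in the mutant (median 369) and 294 to 511 CPM in wild type (median 462). The groups overlapped, with 1 mutant library below the lowest wild-type library and none above the highest. The mean was 356 ± 43.7 CPM in the mutant and 427 ± 74.1 CPM in wild type (SD, n = 12 each), a log2 fold change of -0.26 ± 0.08 (edgeR adjusted p = 0.0245), which is 0.838 times the wild-type level.

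By time, the mean level of Ddc in the mutant was 355 CPM at ZT2, 389 at ZT6, 361 at ZT10, 377 at ZT14, 371 at ZT18 and 281 at ZT22. In wild type it was 344 CPM at ZT2, 489 at ZT6, 409.8 at ZT10, 487 at ZT14, 480.1 at ZT18 and 353 at ZT22. The mutant mean was the lower at 5 of the 6 times, and at ZT2 it was not. At 4 times (ZT6, ZT14, ZT18 and ZT22) both mutant libraries lay below both wild-type libraries. No time by itself gave a call for Ddc. The difference had the same sign in all 36 alternative fits, from -0.34 to -0.21, and missed the threshold in 10 of them, with adjusted p-values up to 0.367. The difference was larger without both wild-type libraries that stood apart (-0.31, adjusted p = 0.00702).

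Ddc overlaps the gene CG10561, whose level was 67.7 ± 5.17 CPM in the mutant and 76.3 ± 9.41 CPM in wild type (log2 fold change -0.17, adjusted p = 0.0762). The kit keeps the strand of the RNA, but whether the counting used it is not stated by the labels, so reads of such pairs may have been divided between them. Trh, Tdc2, Tbh and Vmat also overlap other genes, such as CG13912 at Trh with 14.1 CPM in the mutant and 14.3 CPM in wild type. The epidermis, where Ddc also serves cuticle, was followed with 6 markers. Their summed level was 79.9 to 127 CPM in the mutant and 86.3 to 151 CPM in wild type, and none of the 5 tested was called. The part of cell composition in the Ddc difference was not tested.

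The gene Trh (FBgn0035187; 3L, 1190384 to 1193173, minus strand) encodes the tryptophan hydroxylase of neurons, which starts the synthesis of serotonin. The symbol trh in the same table is another gene, and the names were matched by letter case. The level of Trh was 25.5 to 31.8 CPM in the mutant (median 28.4) and 24.8 to 33.8 CPM in wild type (median 30.0). It was the steadiest of the 8, with libraries of both genotypes mixed over one narrow range. The log2 fold change was -0.05 ± 0.06 (adjusted p = 0.541) and its 95% interval was -0.18 to 0.07.

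Tyrosine decarboxylase 2 is encoded by Tdc2 (FBgn0050446; 2R, 6684745 to 6689974, minus strand) and makes tyramine in neurons. Its level was 11.6 to 18.1 CPM in the mutant (median 16.4) and 4.97 to 21.2 CPM in wild type (median 15.0). The mutant range lay inside the wild-type range, and the lowest wild-type library was ZT2 replicate 2, with 44 counts. The log2 fold change was 0.09 ± 0.16 (adjusted p = 0.692).

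Tbh (FBgn0010329; X, 7995697 to 8027394, plus strand) encodes tyramine beta-hydroxylase, which turns tyramine into octopamine. Its level was 37.4 to 59.0 CPM in the mutant (median 51.8) and 16.2 to 53.9 CPM in wild type (median 45.6). Above the highest wild-type library lay 4 mutant libraries, and the 2 lowest libraries were wild-type ZT2 replicate 2 (16.2 CPM) and wild-type ZT22 replicate 1 (25.3 CPM), the 2 that stood apart. The log2 fold change was 0.30 ± 0.14 (adjusted p = 0.106). Without these 2 libraries it was 0.16 (adjusted p = 0.215). Leaving out wild-type ZT22 replicate 2 or wild-type ZT2 replicate 1 made Tbh a call, at 0.40 (adjusted p = 0.0342) and 0.43 (adjusted p = 0.00718). In each of these fits a library that stood apart was the only one left for its time in wild type.

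The vesicular monoamine transporter gene Vmat (FBgn0260964; 2R, 13513132 to 13534251, minus strand) serves all aminergic neurons. Its level was 355 to 532 CPM in the mutant (median 444) and 332 to 1027 CPM in wild type (median 429). The highest value was that of wild-type ZT2 replicate 2, which was 494 CPM above the highest of the 23 other libraries. In the same library the summed level of 8 neuron markers was also the highest of all, 9000 CPM. Among wild-type libraries 1 of these markers, para, reached 4446 CPM against a median of 1053 CPM, and no other exceeded 1450 CPM (nSyb). Among the less abundant markers, Rim reached 1157 CPM in wild type (median 448 CPM) and elav 458 CPM (median 217 CPM). Which library held these maxima is not given here, so the sum does not show which of the 8 markers rose besides para. The log2 fold change was -0.04 ± 0.14 (adjusted p = 0.837), and without both libraries that stood apart it was 0.11 (adjusted p = 0.411). Neither sign passed the test.

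In the mutant, Vmat differed between the replicate series. Replicate 1 held 467 to 532 CPM (mean 492 ± 25.5, SD, n = 6) and replicate 2 held 355 to 421 CPM (mean 385 ± 27.5, n = 6), with no overlap. The series of ple also differed in the mean, 101 ± 12.2 CPM in replicate 1 and 75.5 ± 12.0 CPM in replicate 2, and at each of the 6 times replicate 1 was the higher. Ddc did not differ in this way, with 357 ± 37.4 CPM in replicate 1 and 355 ± 52.9 CPM in replicate 2. Between these series the summed hemocyte markers also differed, with a mean of 523 CPM in replicate 1 and 230 CPM in replicate 2, as did fat body markers (55457 and 14616 CPM), and neuron markers did so less (6590 and 6244 CPM). The difference of long from short transcripts also separated the series, with 0.34 to 0.60 in replicate 1 and -0.33 to 0.27 in replicate 2. Its relation to RNA quality was not tested. Of the 8 genes Vmat has the longest transcripts (6622 nt on average). The part of these differences in the levels of Vmat and ple was not tested. Wild-type ZT2 replicate 2, with the lowest difference of long from short transcripts of all libraries (-1.49), had the highest level of Vmat (1027 CPM). What the replicate numbers stand for is not stated by the labels, and the log2 fold change of Vmat was 0.13 with mutant replicate 1 only and -0.23 with mutant replicate 2 only, neither of them called.

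DAT (FBgn0034136; 2R, 16558567 to 16565238, minus strand) encodes the dopamine transporter of the plasma membrane. Its level was 17.4 to 23.9 CPM in the mutant (median 21.8) and 20.4 to 29.5 CPM in wild type (median 23.3). Of the mutant libraries 3 lay below the lowest wild-type library and none above the highest. The log2 fold change was -0.17 ± 0.07 (adjusted p = 0.0815). With offsets for gene length it was -0.28 and passed the threshold (adjusted p = 0.0322), as it did without cwo5073 ZT18 replicate 2 (-0.20, adjusted p = 0.0454).

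SerT (FBgn0010414; 2R, 24404595 to 24411074, minus strand) encodes the serotonin transporter. Its level was 16.8 to 47.3 CPM in the mutant (median 36.3) and 21.2 to 45.7 CPM in wild type (median 37.2). The lowest library of each genotype was replicate 2 at ZT18. The log2 fold change was -0.12 ± 0.14 (adjusted p = 0.541). The ratio of the highest to the lowest library in CPM was 2.81 in the mutant and 2.16 in wild type for SerT, and 1.25 in the mutant and 1.37 in wild type for Trh, the other gene of serotonin neurons.

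**Figure D3:**
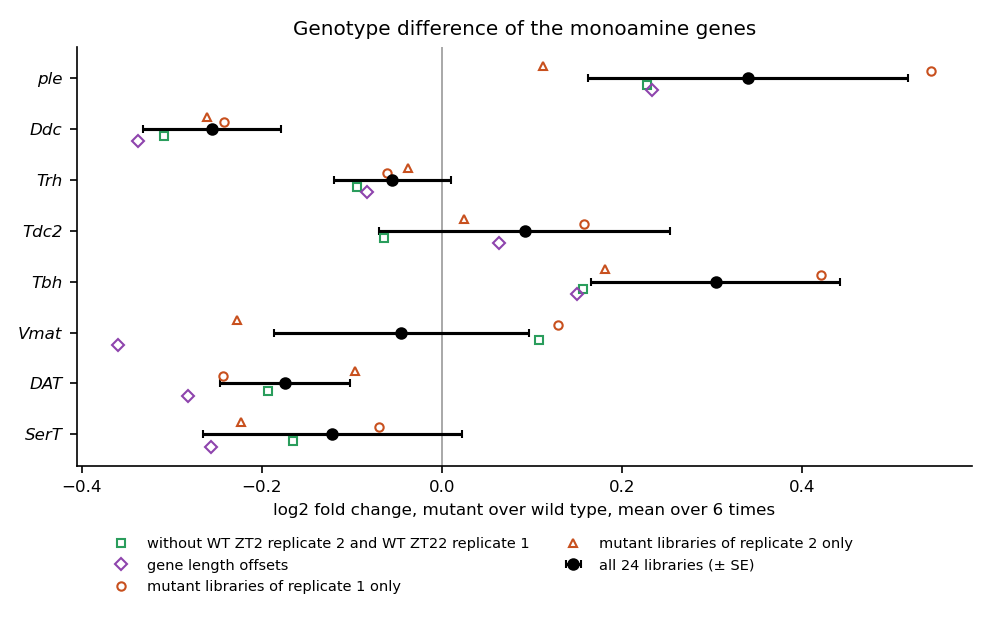
Log2 fold change (x axis, mutant over wild type, mean over 6 times) of the 8 genes, with all 24 libraries (black, bars of 1 SE) and in 4 alternative fits (open symbols). Ddc lies below 0 in each fit shown (-0.26 with all libraries), ple and Tbh lie above 0 in each, and Tdc2 and Vmat lie on either side of 0.

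At single times none of the 8 genes was called by edgeR. Of all genes 14.5% were called at ZT2, 0.829% at ZT6, 1.26% at ZT10, 0.811% at ZT14, 0.757% at ZT18 and 1.16% at ZT22, and at an unadjusted p under 0.05 the counts over all genes were 4271 at ZT2 and 644 to 1859 at the other times. The largest differences were at ZT2, where wild type holds the library that stands apart. Tbh at ZT2 had 54.2 and 52.2 CPM in the mutant and 37.4 and 16.2 CPM in wild type (log2 fold change 0.98 ± 0.34, adjusted p = 0.0611 with edgeR and 0.0331 with DESeq2). Without wild-type ZT2 replicate 2 the difference of Tbh was 0.49 (adjusted p = 0.558), and that of ple at ZT2 was 0.20 in place of 0.92 ± 0.44. The difference of Vmat at ZT2 was -0.64 ± 0.35 with both wild-type libraries and 0.30 without replicate 2. With replicate 2 as the only wild-type library at ZT2, the differences were 2.34 for ple, 1.67 for Tdc2, 1.72 for Tbh and -1.22 for Vmat. Tbh at ZT2 was called by DESeq2, and by edgeR without wild-type ZT22 replicate 1 (0.98) or replicate 2 (0.99). The ZT2 values of these genes thus depended on 1 library.

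A change of the genotype difference over the day was tested in 1 step over the 6 times. No gene of the 8 was called, with adjusted p-values from 0.903 for ple and Tbh to 0.9996 for DAT, and over all genes the test called 0% (267 genes had an unadjusted p under 0.05). DESeq2 was not run for this test. Leaving out wild-type ZT2 replicate 1 gave calls for ple (adjusted p = 0.00834) and Vmat (adjusted p = 0.0380), and 2106 genes were then called in all.

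Several of these genes are read as more than 1 transcript. The deposited tables divide reads between 18 annotated transcripts of the 8 genes. Of these, 17 passed the filter on low values, and none was called between the genotypes by limma on log2(FPKM + 1), where 7.78% of all 21548 transcripts were called. Unadjusted p-values under 0.05 were found for 4 of the 17, and the share of all transcripts at that level is not given here. Without wild-type ZT2 replicate 1, limma called Vmat-RD (0.66, adjusted p = 0.000908), ple-RB (1.54, adjusted p = 0.0448) and 1 DAT transcript (-0.27, adjusted p = 0.0420), and without wild-type ZT22 replicate 2 it called Tbh-RB (1.65, adjusted p = 0.0480). Such tables rest on the division of reads among overlapping models by the submitters' software, and single transcripts are listed at 0 in some libraries while others of the same gene take all of its reads.

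The tyrosine hydroxylase gene has a form of 5 exons and 508 codons (ple-RA) and forms of 7 exons and 579 codons (ple-RB and ple-RC, the last with a longer 3' end). The short form is known as that of the nervous system, and the added exons of the long forms encode an acidic stretch of the form used in the epidermis. The short form had 8.98 ± 3.77 FPKM in the mutant and 7.32 ± 3.92 FPKM in wild type, and the long forms together had 17.4 ± 5.26 FPKM in the mutant and 14.5 ± 7.57 FPKM in wild type (SD, n = 12 each). The share of the short form was 34.4 ± 15.8% in the mutant and 33.4 ± 18.6% in wild type. It was listed at 0 in 1 mutant library and in 2 wild-type libraries, which were those that stood apart. In both genotypes the share was highest at ZT14, with 52.4% and 53.8% in the mutant libraries and 49.1% and 60.9% in the wild-type libraries, the time of the lowest level of ple in 3 of the 4 series.

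The long forms varied over the day in both genotypes. In the mutant they had 25.7 and 15.3 FPKM at ZT2, 12.1 and 9.27 FPKM at ZT14 and 21.9 and 20.3 FPKM at ZT18. Mutant replicate 2 was thus highest at ZT18 for the long forms and at ZT2 for the gene as a whole. In mutant ZT18 replicate 2, however, the short form was listed at 0 and the long forms took all of the gene's FPKM. The gene as a whole had 68.0 CPM in that library, so its value for the long forms rests on the division of reads. In wild type they had 26.7 and 27.1 FPKM at ZT22 and 8.79 and 5.44 FPKM at ZT14. At ZT14 the short form had 13.3 and 10.8 FPKM in the mutant and 8.47 and 8.48 FPKM in wild type, and at ZT22 it had 4.58 and 7.45 FPKM in the mutant and 0 and 7.01 FPKM in wild type. These are descriptions with 2 libraries at a time, and no test of the forms by time was made.

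Among the long forms, ple-RB took 14.8 FPKM in the mutant and 9.12 FPKM in wild type (log2 fold change 1.19 ± 0.57, adjusted p = 0.200), and ple-RC took 2.55 FPKM in the mutant and 5.41 FPKM in wild type (-0.71 ± 0.35, adjusted p = 0.216). The share of ple-RB was 55.2 ± 18.7% in the mutant and 35.9 ± 24.1% in wild type, a difference of 19.4 points that was not called (two-sided permutation test, 100000 resamples, n = 12 each, p = 0.0392, adjusted p = 0.118 over 6 genes). Without wild-type ZT22 replicate 2 it was 22.6 points and was called (permutation adjusted p = 0.0470).

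Ddc was read mainly as Ddc-RD, a form of 2 exons and 475 codons, with 107 ± 16.6 FPKM in the mutant and 136 ± 33.7 FPKM in wild type (log2 fold change -0.30 ± 0.13, adjusted p = 0.149). Without both libraries that stood apart this transcript was called (-0.42, adjusted p = 0.0232). Ddc-RC, the form of 4 exons and 510 codons with an added coding exon, known as the form of the nervous system, had 9.36 ± 4.03 FPKM in the mutant and 10.9 ± 2.98 FPKM in wild type (-0.23 ± 0.17, adjusted p = 0.397). The third form, Ddc-RB, had 7.02 FPKM in the mutant and 5.91 FPKM in wild type. Exon 1 of Ddc-RD (19119156 to 19120306) spans exons 1 to 3 of Ddc-RC, its added coding exon among them, and the introns between. The levels of these forms relative to each other thus rest on how reads of this span were divided, which was not tested. The share of Ddc-RD did not differ beyond its spread, 86.6 ± 6.64% in the mutant and 88.4 ± 3.67% in wild type (permutation adjusted p = 0.481).

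Vmat was the 1 gene of 6 with more than 1 transcript whose division among forms was called between the genotypes. The long form Vmat-RE (7325 nt, 610 codons) took 69.5% to 87.2% of the gene's FPKM in the mutant (median 82.8%) and 82.9% to 98.6% in wild type (median 86.8%). The ranges overlapped. All mutant libraries of replicate 2 lay below the lowest wild-type share, and most of replicate 1 lay within the wild-type range. The mean share was 81.7 ± 4.77% in the mutant and 87.8 ± 4.06% in wild type, a difference of -6.04 points (two-sided permutation test, n = 12 each, p = 0.00054, adjusted p = 0.00324 over 6 genes). The short form Vmat-RD (2446 nt, 646 codons) had 7.81 to 12.4 FPKM in the mutant (median 9.90) and 1.20 to 9.07 FPKM in wild type (median 7.72), a log2 fold change of 0.50 ± 0.18 that was not called among all transcripts (adjusted p = 0.104). The highest share of the long form was that of wild-type ZT2 replicate 2, and the difference in share was called without it too. In the mutant, Vmat-RE had 53.8 to 60.3 FPKM in replicate 1 and 42.3 to 49.5 FPKM in replicate 2, with no overlap. The permutation treated all libraries as exchangeable, though mutant libraries of 1 number share deviations. The part of the replicate series in the difference in share was not tested.

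A gene inside the span of Vmat, CG13331, was higher in the mutant, at 2.20 ± 0.33 CPM, against 0.937 ± 0.387 CPM in wild type (log2 fold change 1.28 ± 0.24, edgeR adjusted p = 0.00161). Another form, Vmat-RF, was listed above 1 FPKM in 2 of the mutant libraries, with 3.33 FPKM at ZT6 and 7.85 FPKM at ZT10, and in none of the wild-type libraries. How reads of this span were divided was not tested.

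The other genes with several forms gave no called difference in share. Tbh-RC took 49.7 ± 17.4% of Tbh in the mutant and 66.3 ± 37.2% in wild type, and it ranged from 0% to 100% among wild-type libraries. The share of the main DAT transcript was 70.7 ± 15.5% in the mutant and 76.8 ± 20.7% in wild type, but both DAT transcripts have the same exons and differ in their annotated coding sequence only, so no reads can tell them apart. For SerT the main transcript took 76.7 ± 28.5% in the mutant and 66.1 ± 36.8% in wild type.

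**Figure D4:**
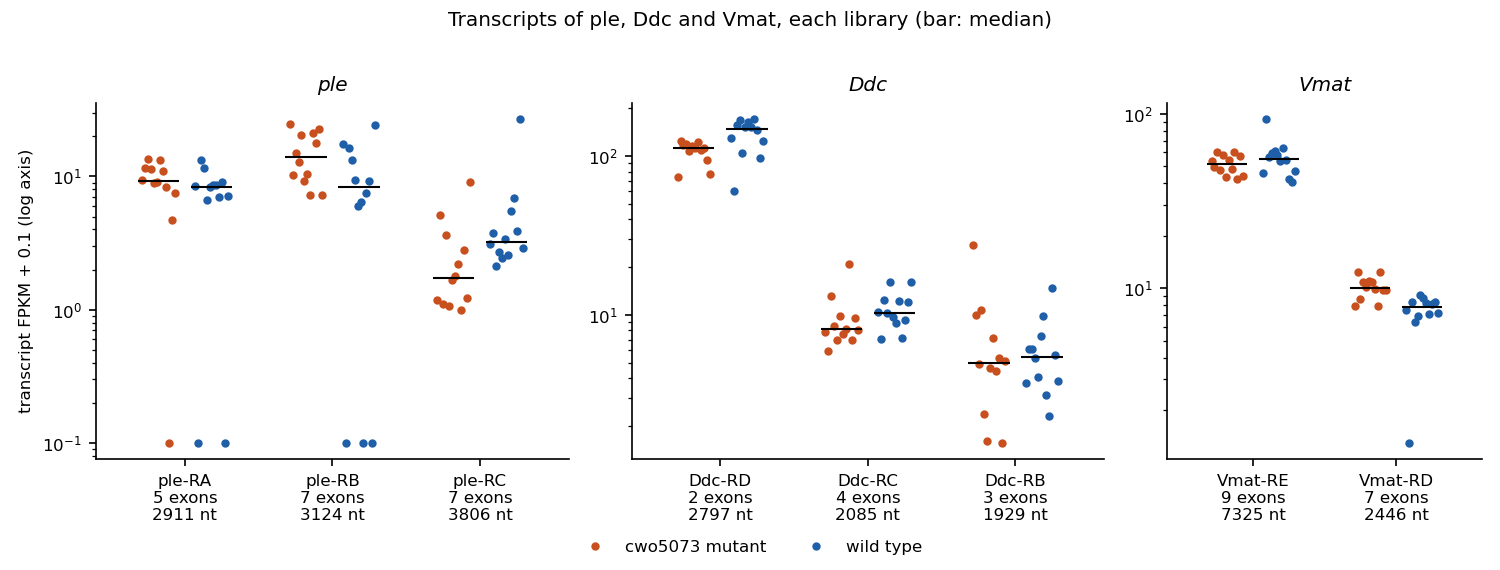
FPKM of single transcripts (y axis, FPKM + 0.1 on a log axis) of ple, Ddc and Vmat in the 12 mutant (orange) and 12 wild-type (blue) libraries, with the median as a bar and exon number and length under each name. The short form Vmat-RD has a median of 9.90 FPKM in the mutant and 7.72 FPKM in wild type, and points at the bottom of the ple panel are libraries listed at 0.

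Around the 8 genes, 46 further genes of cofactor supply, inactivation, histamine, receptors and other transmitters were followed, of which 45 were tested. Of these, 8 were higher and 5 lower in the mutant, and 32 were not called, next to 28.0% called among all genes. Their median log2 fold change was 0.05. The cofactor and substrate list held the largest differences. It had 3 of 7 genes lower, where 13.9% of all genes were, and none higher, with a median of -0.17.

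The genes Pu and pr encode the first enzymes of tetrahydrobiopterin synthesis, the cofactor that tyrosine and tryptophan hydroxylases need, and they also feed the pteridine pigments of the eye. Pu had 192 to 341 CPM in the mutant and 422 to 947 CPM in wild type, with no overlap (log2 fold change -1.51 ± 0.12, edgeR adjusted p = 2.4e-07). The gene pr had 52.8 to 78.5 CPM in the mutant and 98.9 to 203 CPM in wild type, again with no overlap (-1.06 ± 0.10, adjusted p = 2.8e-06). Both kept their call in all 36 alternative fits. The third, Pcd, whose product recycles the cofactor, had a log2 fold change of -0.27 ± 0.09 (adjusted p = 0.0310), missed the threshold in 15 of the 36 fits and changed sign in 1 of them, with offsets for gene length (0.0103). Dhpr, Sptr, Catsup and the phenylalanine hydroxylase gene Hn were not called. The pigment transporter gene w also differed between the strains, in the other direction, and its part in the difference of Pu and pr was not tested.

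Of the 8 genes for inactivation of amines and their use in cuticle, 3 rose in the mutant, where 14.1% of all genes did, and none fell. They were e, which joins beta-alanine to dopamine (0.62 ± 0.11, adjusted p = 0.000917), stw, the laccase that cross-links cuticle (0.72 ± 0.15, adjusted p = 0.00456), and amd, a relative of Ddc (0.54 ± 0.14, adjusted p = 0.0129). Of the histamine genes, Hdc, which makes the transmitter of photoreceptors, rose, with 118 to 172 CPM in the mutant and 33.5 to 111 CPM in wild type and no overlap (1.04 ± 0.13, adjusted p = 6.3e-05). The carcinine transporter gene CarT fell (-0.43 ± 0.15, adjusted p = 0.0387) but missed the threshold in 23 of 36 fits. The photoreceptor markers moved with Hdc, 5 of 7 higher (14.1% of all genes) and none lower in the mutant, without overlap of their summed levels, and their part in the Hdc difference was not tested.

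Receptors of the amines mostly gave no call, with 3 higher and 1 lower of 17, next to 14.1% and 13.9% of all genes. Of 4 dopamine receptor genes Dop1R1 rose (0.31 ± 0.11, adjusted p = 0.0463), of 5 serotonin receptor genes 5-HT2B rose (0.40 ± 0.10, adjusted p = 0.0119), and of 8 octopamine and tyramine receptor genes TyrR rose (0.24 ± 0.09, adjusted p = 0.0497) and Octbeta2R fell (-0.61 ± 0.13, adjusted p = 0.00390). Octbeta2R had 102 to 152 CPM in the mutant and 138 to 426 CPM in wild type, with some overlap. The calls of Dop1R1 and TyrR were lost in 21 and 24 of 34 alternative fits, and with offsets for gene length that of Dop1R1 changed sign (-0.17). Tdc1, the tyrosine decarboxylase of other tissues, rose (0.65 ± 0.13, adjusted p = 0.00339), unlike the neuronal Tdc2, though the difference between those changes was not tested. None of the 5 genes of acetylcholine, GABA and glutamate transmission was called.

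**Figure D5:**
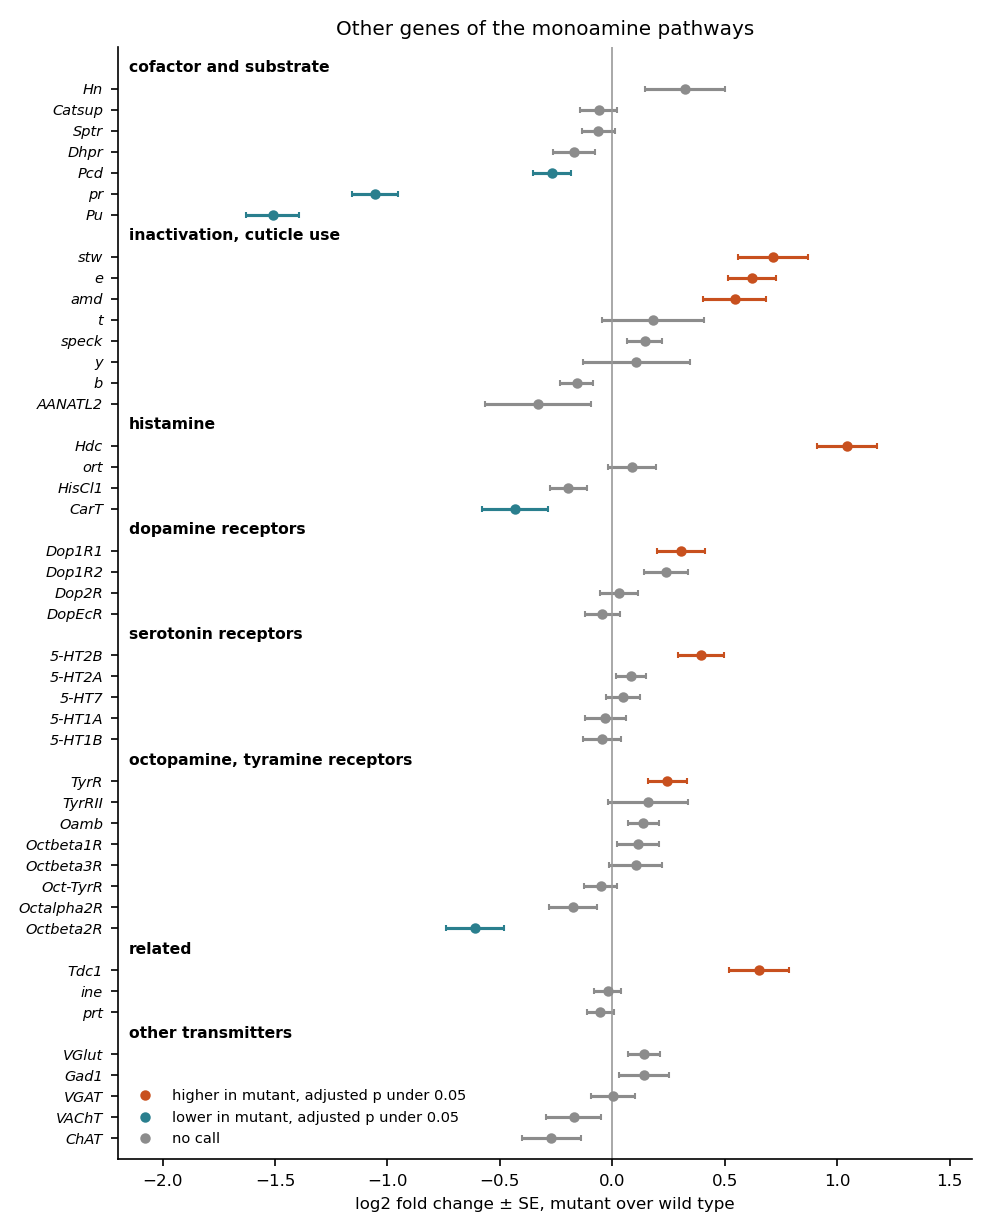
Log2 fold change with 1 SE (x axis, mutant over wild type) of 44 further genes of the monoamine pathways and other transmitters, grouped by role, with genes higher in the mutant at an adjusted p under 0.05 in orange, lower in teal and not called in grey. Pu (-1.51) and pr (-1.06) lie farthest to the left and Hdc (1.04) farthest to the right; the fold change of BalaT, at or near 0 in most libraries, could not be estimated and is not drawn.

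As a description, the genes most like each of the 8 in their pattern over the 12 group means were named by Pearson's r of log2 CPM. The nearest to ple were Ugt86Da (0.90) and CG5044 (0.86), and the nearest to Ddc were CG34396 (0.90) and CG42238 (0.90). The nearest to Tbh were CR43464 (0.99) and Su(var)2-10 (0.99), and to Tdc2 danr (0.96) and pkaap (0.96), patterns that share the low wild-type ZT2 group. Vmat was nearest to CG32791 (0.95) and CG31140 (0.94), DAT to GstT4 (0.96) and Rim2 (0.94), SerT to kdn (0.90) and l(1)G0148 (0.82), and Trh to beat-Vc (0.82) and Der-2 (0.78). All points share libraries and their depth.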

How the data were processed

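Poly(A) libraries of fly heads were made with a directional kit and sequenced as single reads of 75 bp, per the labels. STAR 2.6.1d, StringTie, DESeq2 and the build dm6 are named, without roles, per the submitters' processing notes. The deposited gene table holds expected counts, whole numbers that were not normalized by the authors: for 16711 of 16722 genes in all libraries each lay within 1 of the summed coverage times length over the read length, so they are estimates and not reads counted once. Coverage (a signal by base) and FPKM of 35411 transcripts stand in the deposited transcript tables, per the file headers. In the deposited gene FPKM table (8489 genes) the scale between genes did not follow transcript length, so levels between genes were taken from the transcript FPKM. Rows of 5 names that had been turned into dates (at most 0.0275% of counts) were left out.

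Counts were tested with edgeR 4.0.16 (limma 3.58.1, R 4.3.3): filterByExpr, TMM, quasi-likelihood tests on 12 groups, and a cosine and sine of 24 h per genotype for rhythms, with Benjamini-Hochberg adjustment over all genes and a threshold of 0.05. The common biological coefficient of variation was 0.26. For transcripts that reached 1 FPKM in 2 or more libraries, limma was run on log2(FPKM + 1), a scale that understates changes of low transcripts. Shares of the most abundant transcript were compared by permutation of the 24 libraries. Alternatives were RLE factors, no filter, the replicate number as a block, gene length offsets, DESeq2 1.42.0, limma on gene FPKM, fewer times and libraries left out. On simulated counts of 10872 genes the genotype test recovered 96.0% of genes changed by 1 on the log2 scale and 100% of those changed by 2. Python 3.11.15 with pandas 2.3.3, numpy 2.4.6 and matplotlib 3.10.9 served for joining tables and drawing. Genes are placed by the Ensembl and RefSeq annotation of the same assembly.

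The 8 genes and all lists were chosen with earlier results of these data known. Named are the 8 genes, cwo, of each list up to 2 genes with the highest and 2 with the lowest fold change among those called, and the 2 genes nearest in pattern to each of the 8; w and the genes overlapping Ddc, Trh and Vmat were added after their values were seen. The labels do not say whether replicates are separate cultures, so p-values measure only how these samples spread, which may be technical; the replicates of a group differed by a chi-square of 27.7 to 248 per degree of freedom, and no 2 libraries were identical. Sequences and promoter motifs of these genes were not analysed here.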

Additional observations from a re-analysis of the deposited data

How the results depend on the processing

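Calls over all times depended on few genes near the threshold. Of the 8 genes the number lower in the mutant was 1, and it was 2 with gene length offsets and 0 with ZT6 to ZT18 only, with limma on gene FPKM at either pseudocount (1 or 0.1), and with the mutant libraries of replicate 1 only or of replicate 2 only, a choice made after seeing the data. For the pathway genes the main counts were 8 higher and 5 lower. With gene length offsets 8 were lower, with ZT6 to ZT18 only 4 were higher and 3 lower, with limma on gene FPKM 5 (pseudocount 1) and 4 (pseudocount 0.1) were higher, and with mutant replicate 2 only 3 were higher and 2 lower. At ZT2, 1 of the 8 genes was lower with gene length offsets (Vmat) and 1 higher with DESeq2 (Tbh). Without both libraries that stood apart, 1 of the 8 (ple) was called rhythmic in wild type and 1 member transcript (Ddc-RD) was lower. Gene length offsets turned Pcd to 0.0103 and Dop1R1 to -0.17. Leaving out each library in turn gave 0 to 2 of the 8 genes higher and 0 to 2 lower, 6 to 12 pathway genes higher and 3 to 8 lower, 0 to 3 of the 8 higher and 0 to 1 lower at ZT2, 0 to 2 with an interaction, 0 to 1 rhythmic in wild type, 0 to 2 of their transcripts higher and 0 to 1 lower, and 1 to 2 shares called. The Ddc call was lost without cwo5073 ZT2 replicate 1, cwo5073 ZT10 replicate 1, and WT ZT6 replicate 2, ZT14 replicate 1 or ZT18 replicate 1 (adjusted p up to 0.0571). The cause of these changes was not tested. Without being called, Tdc2 changed sign in 1 fit and Vmat in 4. Same-numbered libraries deviated together (correlation over 0.1) in 18 of 66 pairs of groups: 12 of 15 between mutant times, 2 of 15 between wild-type times and 4 of 36 across genotypes. The numbers thus do not pair mutant with wild type, but mutant libraries of 1 number share deviations. With the replicate number as a block Ddc was at -0.26 (adjusted p = 0.0247), and 1711 genes were called higher and 1875 lower. With the block within genotype Ddc was at -0.26 (adjusted p = 0.0254), with 1822 genes higher and 2002 lower, against 1566 and 1538 without a block. Replicates differed by far more than counting error, and the SE of a gene did not follow its depth: it was 0.16 for Tdc2, 0.07 for DAT and 0.14 for Vmat.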
